A study of Mus musculus with 10 samples.

Results

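The genes described here are the potassium channel genes of the mouse heart, taken as every gene whose symbol begins with Kcn in either of 2 deposited expression tables, leaving out antisense and overlapping transcripts whose names end in ot1 or in os with or without a number. There were 49 such genes among the 15498 genes of the embryonic table and 52 among the 15989 genes of the adult table, 67 in either and 34 in both. The names were chosen by symbol alone, so that pore-forming subunits, accessory subunits and a few low-level genes with no known role in heart stand in the same group.

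RNA-seq of C57BL/6 hearts compared mice lacking Larp7, which encodes an RNA-binding protein of the 7SK ribonucleoprotein, with controls in 2 models. At embryonic day E15.5, whole hearts of the genotype Larp7-/- (n = 3) were set against Larp7+/+ hearts (n = 3). At 4 months of age, apex tissue from samples labelled mCKO, with the genotype Myh6Cre;Larp7f/f (n = 2), was set against apex tissue from CTR samples, Larp7f/f without Cre (n = 2), so that both adult groups carried the floxed alleles. The Myh6 promoter drives Cre in cardiomyocytes, and the other cells of the apex keep the gene. The labels do not state that each sample is a different animal, and the p-values cover no more than the variation among the samples at hand, which may be technical. In RNA from whole tissue, fewer cells of a type and less RNA per cell cannot be told apart.

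The values, called units here, are scaled to a total per sample (per-million) and hold no decimals. Sequencing depth is unknown, and no source used here says whether they are corrected for gene length, so levels were not compared between genes. Each sample sums to between 998498 and 1001508. For a given gene, each knockout value and the control value with its number sum to a constant, within 2, in all 49 embryonic and all 52 adult potassium channel genes, as they do in nearly every gene of the tables. A knockout sample therefore falls short of its group mean by about as much as its same-numbered control exceeds its own, and the replicate number was a block in the test. Larp7 itself had 45, 54 and 40 units in Larp7-/- hearts, against 96, 88 and 103 in Larp7+/+ hearts (limma, log2 change -1.04, adjusted p = 0.00159). In the adult it had 26 and 24 units in the samples labelled mCKO, against 26 and 28 in CTR (log2 change -0.11, adjusted p = 0.933). No source used here gives the floxed exons, so the adult labels were not borne out by the targeted gene and every adult direction below rests on the labels. Of 8 cardiomyocyte markers, 4 were listed at E15.5 (Tnnt2, Tnni3, Tnnc1 and Ttn, not Actn2, Ryr2, Myh6 or Myh7) and all 8 in the adult.

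Potassium channels carry the outward current that ends the cardiac action potential and hold the resting potential between beats. Voltage-gated channels are tetramers of pore-forming subunits (Kcna, Kcnb, Kcnc, Kcnd, Kcnh and Kcnq families) that assemble with accessory subunits of the Kcne, Kcnip and Kcnab families, while inward rectifiers (Kcnj), tandem-pore leak channels (Kcnk) and calcium-activated channels (Kcnn, Kcnma1 with Kcnmb) act nearer the resting potential or respond to calcium. In adult mouse ventricle the fast transient outward current, built from Kcnd2 and Kcnd3 with the accessory subunit Kcnip2, is a major repolarizing current, and the acetylcholine-activated channel of Kcnj3 and Kcnj5 is best known from atrium and sinoatrial node.

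Few of these genes passed the test. At E15.5, Kcnj3 and Kcne3 were called higher in Larp7-/- hearts, each at a limma adjusted p of 0.0496, and no potassium channel gene was called lower. The 2 are 4.65% of the tested potassium channel genes, against 0.529% of all tested genes. In the adult, Kcnd2, Kcnj3 and Kcnj2 were called lower in the samples labelled mCKO (6.67%, against 0.95% of all tested genes) and none was called higher. No call held under all of the alternative settings given below. Kcnj3 was thus called in both models, in opposite directions.

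The DNA just before the transcription start of these 4 genes is shown because they are the ones that were called. RefSeq start sites on build GRCm38 were found for 49 of the 67 genes, with 68 windows of 250 bases before a start, all read in the direction of the gene. Capitals mark a TATA box (TATAAA), a GC box (GGGCGG) or a CCAAT box (CCAAT) on either strand, and none of these matches overlapped another. Kcne3 has 2 listed starts, of which the downstream one is shown because the window of the other lies partly in an exon of the gene.
Kcnj3, chr2:55435720-55435969, plus strand: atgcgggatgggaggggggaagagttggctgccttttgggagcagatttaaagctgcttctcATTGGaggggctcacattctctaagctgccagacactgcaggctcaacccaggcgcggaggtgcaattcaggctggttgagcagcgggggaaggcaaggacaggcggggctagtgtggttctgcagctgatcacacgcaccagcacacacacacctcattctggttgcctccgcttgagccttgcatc
Kcnd2, chr6:21215096-21215345, plus strand: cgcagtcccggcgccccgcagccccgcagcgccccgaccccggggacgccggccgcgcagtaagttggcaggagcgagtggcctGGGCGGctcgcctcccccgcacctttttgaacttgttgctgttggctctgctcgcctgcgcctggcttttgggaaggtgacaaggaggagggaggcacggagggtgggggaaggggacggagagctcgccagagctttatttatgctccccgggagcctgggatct
Kcnj2, chr11:111065914-111066163, plus strand: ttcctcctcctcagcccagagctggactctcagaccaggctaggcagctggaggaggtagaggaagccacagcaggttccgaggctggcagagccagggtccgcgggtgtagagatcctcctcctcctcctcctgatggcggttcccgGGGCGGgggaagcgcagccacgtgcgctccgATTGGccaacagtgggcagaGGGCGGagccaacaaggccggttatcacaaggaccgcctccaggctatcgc
Kcne3, chr7:100178433-100178682, plus strand: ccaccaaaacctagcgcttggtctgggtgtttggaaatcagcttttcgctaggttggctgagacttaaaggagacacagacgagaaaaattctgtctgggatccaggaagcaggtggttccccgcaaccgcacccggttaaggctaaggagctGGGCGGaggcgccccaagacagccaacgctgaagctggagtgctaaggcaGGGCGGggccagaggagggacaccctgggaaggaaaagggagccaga
None of the 4 windows held the TATA letters, which were in 0 of the 68 potassium channel windows, against 12.4% of the 32851 windows of all genes. The GC box letters occurred in the windows of Kcnd2 (1 match), Kcnj2 (2 matches) and Kcne3 (2 matches), but not in that of Kcnj3, and in 41.2% of potassium channel windows, against 32.7% of all windows. Among the 4 windows shown, the CCAAT letters occurred in those of Kcnj3 and Kcnj2 (1 match each). They occurred in 30.9% of potassium channel windows and in 33.8% of all windows. G and C made up 68.8% of the Kcnd2 window, 65.6% of that of Kcnj2, 58.4% of that of Kcnj3 and 58.0% of that of Kcne3, and the median was 58.6% over the potassium channel windows, against 52.4% over all windows. The Kcne3 window not shown held 2 CCAAT matches and no TATA or GC box letters, with 46.8% G and C. These matches are descriptions of letters and not of sites in use. In GENCODE vM21, also on GRCm38, the genes span chr2:55435970-55598145 (Kcnj3), chr6:21215503-21729805 (Kcnd2), chr11:111066164-111076821 (Kcnj2) and chr7:100176502-100184869 (Kcne3), all on the plus strand. An annotated noncoding gene on the other strand, Gm26794, shares 1621 of the 5215 exon bases of Kcnj3. It was listed at E15.5 only, with values of 2, 1 and 1 in Larp7-/- hearts, against 0, 1 and 2 in Larp7+/+ hearts. No source used here says whether the authors' counting used strand, so reads of the shared bases cannot be assigned with certainty.

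In the embryonic hearts 43 of the 49 genes passed the filter on low values (a value of at least 1 in at least 3 samples) and were tested. The 6 that did not pass, among them Kcna2, Kcna7, Kcnk15 and Kcnu1, never exceeded a value of 1. By limma with Benjamini-Hochberg adjustment over all 13609 tested genes, 2 of the 43 were higher at an adjusted p under 0.05, where 0.529% of all tested genes were called higher. None was lower, where 0.103% of all were called lower, and at an unadjusted p under 0.05 there were 13 potassium channel genes of the 43, all of them with a positive change, where 13.9% of all tested genes had such a p and 10.3% had it with a positive and 3.62% with a negative change. Every Larp7-/- value lay above every Larp7+/+ value in 12 genes, or 27.9% of the 43, against 19.3% of all tested genes. Every Larp7-/- value lay below in 3 genes, or 6.98%, against 8.75% of all tested genes. The median log2 change of the 43 genes (knockout over control, of value + 1) was 0.28, beside 0.11 over the whole set of tested genes. The 22 genes with a mean under 8 had 17 positive and 2 negative changes and a median of 0.53, where a step of 1 in the rounded value moves the log2 value far. The 21 genes with a mean of at least 8 had 13 positive and 8 negative changes and a median of 0.11, and 62.7% of all tested genes at that level were positive.

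In the adult apex 45 of the 52 genes passed the filter (a value of at least 1 in at least 2 samples) and were tested, and the 7 that did not pass, Kcnc2, Kcne3, Kcng4, Kcnj10, Kcnj15, Kcnk4 and Kcnrg, never exceeded a value of 1. By limma with adjustment over all 14835 tested genes, none of the 45 was higher, where 2.34% of all tested genes were called higher, and 3 were lower, where 0.95% were called lower. At an unadjusted p under 0.05 there were 9 genes of the 45, of which 3 had a positive change, where 12.4% of all tested genes had such a p and 9.05% had it with a positive and 3.3% with a negative change. Every value in the samples labelled mCKO lay above every CTR value in 9 genes, or 20.0% of the 45, against 29.3% of all tested genes. Every such value lay below in 11 genes, or 24.4%, against 12.8% of all tested genes. The 45 genes had a median log2 change of 0, beside 0.08 for the whole set of tested genes. Of the 18 genes with a mean of at least 8, 3 had a positive and 13 a negative change, with a median of -0.19, while 32.1% of all tested genes at that level were negative and their median was 0.08. The adult standard errors rest on spread pooled over genes, since 2 samples a group leave 1 residual degree of freedom with the block, and on simulated data the adult fit made many more false calls than its threshold allows.

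**Figure D1:**
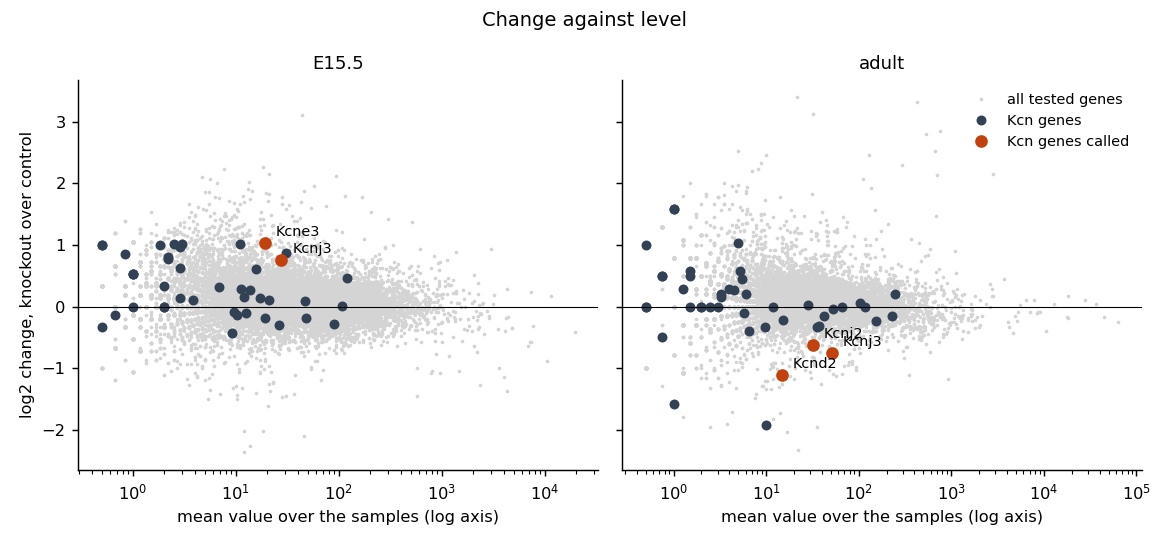
Each point is a gene, placed by its mean value over the samples of a model (units, log axis) and its log2 change in knockout over control, at E15.5 (left) and in the adult (right). Grey points are all tested genes, dark points the potassium channel genes and orange points those called at an adjusted p under 0.05. Kcne3 and Kcnj3 lie above 0 at E15.5, and Kcnj2, Kcnj3 and Kcnd2 lie below 0 in the adult.

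Of the transient outward genes, 1 pore subunit was lower in the adult. Kcnd2, which forms the fast transient outward channel, had 10 and 8 units in the samples labelled mCKO, against 20 and 21 units in CTR. Both values were below both CTR values, and the means were 9.0 ± 1.41 and 20.5 ± 0.707 units (SD, n = 2 each). The log2 change was -1.11 (SE 0.21, limma adjusted p = 2.37e-05), the largest fall among potassium channel genes past the threshold. The call was lost without the rounding variance (adjusted p = 0.437 with the block and 0.0816 with neither), and over all alternatives the adjusted p lay between 1.15e-08 and 0.437. Kcnd3, the other pore subunit of the same current, had 12 units in all 4 adult samples. Kcnip2, the calcium-binding accessory subunit that raises the surface level of Kcnd channels, had 264 and 263 units in the samples labelled mCKO, against 229 and 230 in CTR, a log2 change of 0.20 (SE 0.14, adjusted p = 0.667) that did not pass the test although the groups did not overlap. Without both the block and the rounding variance Kcnip2 was called higher in the adult (limma adjusted p = 0.00176). Kcna4, which forms the slow transient outward channel, had values of 2 and 1 in the samples labelled mCKO, against 1 and 2 in CTR.

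In the embryo no gene of that current passed the test. Kcnd2 had 12, 11 and 13 units in Larp7-/- hearts, against 13, 14 and 12 in Larp7+/+ hearts (log2 change -0.11, SE 0.23, adjusted p = 0.865). Kcnip2 had 19, 18 and 16 units in Larp7-/- hearts, against 19, 20 and 22 in Larp7+/+ hearts (log2 change -0.19, SE 0.20, adjusted p = 0.716). Kcna4 averaged 18 ± 1 units in Larp7-/- hearts and 16.3 ± 0.577 in Larp7+/+ hearts, and Kcnd3 averaged 4.0 and 3.67 units. The low-level Kcnip members, Kcnip3 and Kcnip4 in the embryo and Kcnip1 and Kcnip3 in the adult, did not pass the test; Kcnip1 was listed at 0 in both samples labelled mCKO and at 2 in both CTR samples.

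Of the inward rectifiers, 1 of 6 tested Kcnj genes was called at E15.5 (Kcnj3) and 2 of 8 in the adult (Kcnj3 again and Kcnj2). Kcnj3, a subunit of the acetylcholine-activated channel, had 37, 33 and 35 units in Larp7-/- hearts, against 19, 22 and 20 units in Larp7+/+ hearts. All 3 knockout values exceeded all 3 control values, and the log2 change was 0.76 (SE 0.18, limma adjusted p = 0.0496), just inside the threshold. In the adult, Kcnj3 had 40 and 36 units in the samples labelled mCKO, against 64 and 66 in CTR, again with no overlap but with the knockout values below. The adult log2 change was -0.76 (SE 0.15, adjusted p = 9.2e-05). Kcnj5, which pairs with Kcnj3 in the channel, was not listed at E15.5, and in the adult had 70 and 61 units in the samples labelled mCKO, against 62 and 70 in CTR (log2 change -0.01, SE 0.15). The adult values of Kcnj5 overlapped between the groups; the difference between both genes was not tested. The embryonic call of Kcnj3 was lost without Larp7-/- replicate 1 (adjusted p = 0.311), without Larp7+/+ replicate 1 (0.282) and without Larp7-/- replicate 3 (0.058), while its log2 change stayed between 0.67 and 0.85 over all 6 omissions. With the block, leaving out either sample of a number at E15.5 gave the same log2 change, so these are not 6 separate checks. The embryonic call of Kcnj3 was less firm under other settings too. It was also lost with a pseudocount of 0.5, a minimum mean of 10, median-of-ratios scaling, the block without rounding variance or a plain eBayes prior, the adjusted p ranging between 0.00623 and 0.529 over all alternatives. The adult call of Kcnj3 was lost without the rounding variance and with the plain prior, over a range between 1.93e-07 and 0.372.

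Kcnj2 forms the strong inward rectifier that holds the resting potential of ventricular cells. In the adult it had 22 and 28 units in the samples labelled mCKO, against 42 and 36 in CTR, with no overlap (log2 change -0.63, SE 0.16, limma adjusted p = 0.00758). This call was lost without the block (adjusted p = 0.075), with the block but no rounding variance (0.62), with neither (0.258) and with the plain prior (0.482), over a range between 1.13e-05 and 0.62. In the embryo Kcnj2 had 31, 31 and 54 units in Larp7-/- hearts, against 31, 31 and 8 in Larp7+/+ hearts. The first 2 pairs were equal and the third differed by 46 units, so the embryonic log2 change of 0.87 (SE 0.83, adjusted p = 0.749) came from replicate 3 alone and was 0 without either sample of that number. Kcnj12, the related strong rectifier, had 11, 10 and 8 units in Larp7-/- hearts, against 10, 10 and 12 in Larp7+/+ hearts. In the adult it had 27 and 30 units in the samples labelled mCKO, against 29 and 27 in CTR, and neither difference passed the test. Kcnj4 was listed at 2 in both samples labelled mCKO and at 0 in both CTR samples, and did not pass the test (limma adjusted p = 0.198). It was called higher without the rounding variance (limma adjusted p = 0.028 with the block and 0.000146 with neither) and with the plain prior (2.41e-05).

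The ATP-sensitive channels, which open when ATP falls, showed no call in the chosen fit. Kcnj8, the pore subunit best known from vascular smooth muscle, had 24, 24 and 23 units in Larp7-/- hearts, against 29, 29 and 30 in Larp7+/+ hearts, and in the adult 35 and 31 in the samples labelled mCKO, against 39 and 44 in CTR. Its knockout values lay below its control values in both models, with log2 changes of -0.30 (adjusted p = 0.489) and -0.32 (adjusted p = 0.371). Without both the block and the rounding variance Kcnj8 was called lower at E15.5 (limma adjusted p = 0.0244). Kcnj11, the pore subunit of the cardiomyocyte channel, averaged 48.3 ± 3.51 units in Larp7-/- hearts and 45.3 ± 4.04 in Larp7+/+ hearts (SD, n = 3 each), and had 148 and 135 units in the samples labelled mCKO, against 159 and 173 in CTR. The adult groups of Kcnj11 did not overlap, and the log2 change of -0.23 (SE 0.15, adjusted p = 0.597) did not pass. Of their sulfonylurea receptor partners, Abcc9 had 193, 193 and 220 units in Larp7-/- hearts, against 175, 176 and 148 in Larp7+/+ hearts, and 323 and 314 in the samples labelled mCKO, against 371 and 380 in CTR, with adjusted p-values of 0.466 and 0.545. Abcc8 had log2 changes of 0.75 at E15.5 (adjusted p = 0.217) and 0.06 in the adult (adjusted p = 0.954).

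**Figure D2:**
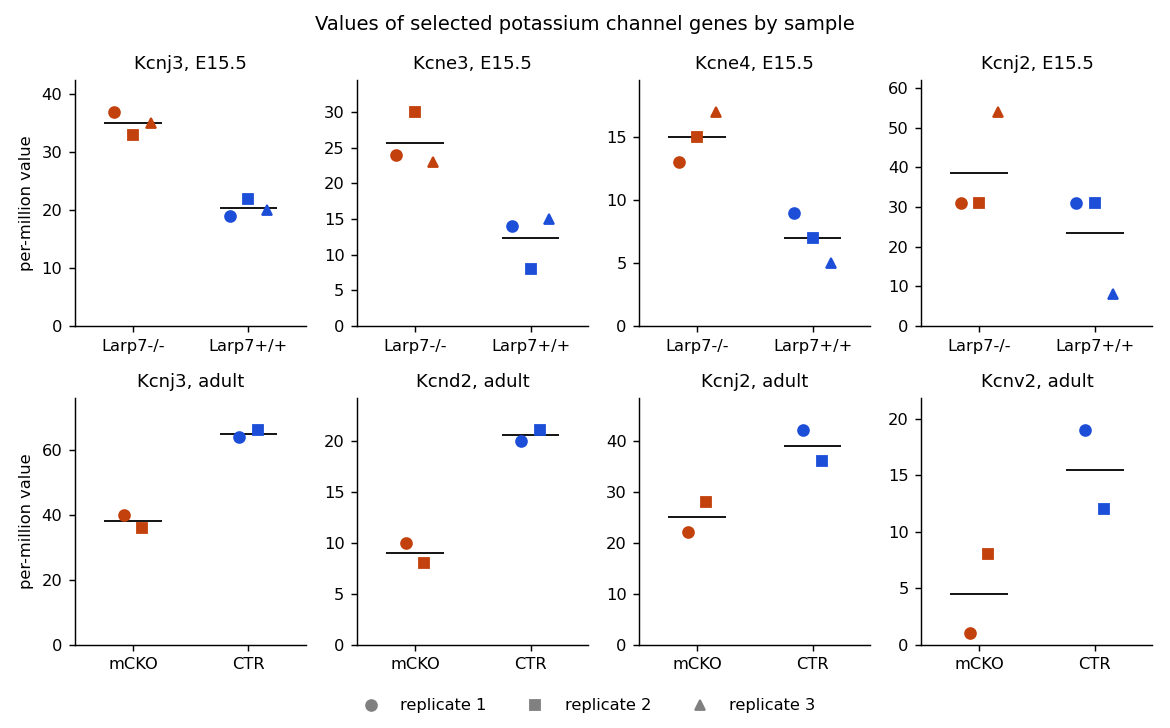
Per-million values (units) of selected potassium channel genes in every sample, with the marker shape giving the replicate number and the line the group mean; each axis starts at 0. The upper row compares Larp7-/- with Larp7+/+ hearts at E15.5 and the lower row mCKO with CTR apex in the adult. Kcnj3 lies above control in the embryo and below it in the adult, and the embryonic difference in Kcnj2 is between the samples of replicate 3.

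The Kcne family, small single-pass subunits that set the gating of Kcnq1, Kcnh2 and other channels, held the other embryonic call, 1 of its 4 tested genes. Kcne3 had 24, 30 and 23 units in Larp7-/- hearts, against 14, 8 and 15 in Larp7+/+ hearts. The groups did not overlap, the means were 25.7 ± 3.79 and 12.3 ± 3.79 units (SD, n = 3 each), and the log2 change was 1.04 (SE 0.24, limma adjusted p = 0.0496). The log2 change fell to 0.66 without replicate 2 of either group, with an adjusted p of 0.19 without the Larp7-/- sample and of 0.132 without the Larp7+/+ sample. Over all alternatives the adjusted p lay between 0.000176 and 0.529, and only the omission of another sample or of the filter left the call in place. Kcne4 had 13, 15 and 17 units in Larp7-/- hearts, against 9, 7 and 5 in Larp7+/+ hearts, a log2 change of 1.02 (SE 0.26) that stood just outside the threshold (adjusted p = 0.0571). Kcne4 was called higher with the rounding variance but no block (adjusted p = 0.0455), with no filter (0.00428) and without replicate 1 or 2 of either group (0.0266 to 0.0441), but its log2 change was 0.74 without replicate 3 of either group, and the adjusted p reached 0.529 with the plain eBayes prior. Kcne1l, also known as Kcne5, had 12, 13 and 13 units in Larp7-/- hearts, against 12, 11 and 11 in Larp7+/+ hearts, and Kcne2 had 2 in all 6 samples.

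In the adult the Kcne family was near the bottom of the scale. Kcne1, which forms the slow delayed rectifier with Kcnq1, had 8 and 6 units in the samples labelled mCKO, against 2 and 4 in CTR (log2 change 1.04, SE 0.33, adjusted p = 0.0536). The groups did not overlap. The gene was called higher with the plain eBayes prior (adjusted p = 0.028) and without replicate 2 of mCKO (0.0115) or CTR (0.000203), but not without replicate 1 of mCKO (log2 change 0.85, adjusted p = 0.225) or CTR (0.67 and 0.182). These omissions also drop the block, so that each changes both choices at once. Kcne4 had 5 and 4 units in the samples labelled mCKO, against 3 and 4 in CTR, and Kcne3 was at 0 in both samples labelled mCKO and at 0 and 1 in CTR.

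The delayed rectifiers, which carry the later phase of repolarization, had no call in either model in the chosen fit. Kcnq1, the pore subunit of the slow current, had 43, 47 and 43 units in Larp7-/- hearts, against 52, 48 and 52 in Larp7+/+ hearts, without overlap (log2 change -0.19, SE 0.16, adjusted p = 0.637). In the adult it had 44 and 35 in the samples labelled mCKO, against 39 and 49 in CTR, with overlap. Kcnh2, the pore subunit of the rapid current, averaged 106.7 ± 3.51 units in Larp7-/- hearts and 106 ± 4.0 in Larp7+/+ hearts (SD, n = 3 each), and had 115 and 95 in the samples labelled mCKO, against 91 and 111 in CTR. Its log2 changes of 0.01 and 0.06 (SE 0.16 and 0.15) turned to -0.055 and -0.0061 under median-of-ratios scaling, so that no direction can be given. Kcnh7, another member of the Kcnh family, had 16, 17 and 24 units in Larp7-/- hearts, against 15, 14 and 8 in Larp7+/+ hearts, with no overlap but an adjusted p of 0.3. Kcna5, which forms an ultrarapid current, averaged 22.0 ± 2.65 units in Larp7-/- hearts and 20.3 ± 2.08 in Larp7+/+ hearts, and had 34 and 28 in the samples labelled mCKO, against 36 and 42 in CTR (log2 change -0.32, SE 0.16, adjusted p = 0.374).

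Tandem-pore channels supply background leak. Kcnk3, an acid-sensitive member, had 130, 139 and 152 units in Larp7-/- hearts, against 112, 102 and 90 in Larp7+/+ hearts. The groups did not overlap and the log2 change was 0.47 (SE 0.16), but the adjusted p was 0.179. In the adult it had 212 and 218 units in the samples labelled mCKO, against 242 and 238 in CTR, also without overlap and in the other direction (log2 change -0.16, SE 0.14, adjusted p = 0.793). Kcnk6 had 12, 12 and 13 units in Larp7-/- hearts, against 10, 11 and 9 in Larp7+/+ hearts, and Kcnk1 had 4, 4 and 3, against 1, 1 and 2; neither passed the test (adjusted p = 0.63 and 0.167). In the adult Kcnk2, Kcnk5 and Kcnk6 lay between 2 and 7 units in every sample.

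No gene of the calcium-activated channels passed the test in either model. Kcnn3, a small-conductance channel, had 7, 8 and 8 units in Larp7-/- hearts, against 12, 10 and 10 in Larp7+/+ hearts (log2 change -0.43, SE 0.25, adjusted p = 0.469), with no overlap. Kcnn1 and Kcnn2, of the same family, were not listed at E15.5. In the adult Kcnn2 had 9 and 8 units in the samples labelled mCKO, against 10 and 12 in CTR, and Kcnn1 had 12 and 16, against 19 and 14 (adjusted p = 0.667 and 0.794). Kcnma1, the pore subunit of the large-conductance channel, was listed in neither table. Its accessory subunit Kcnmb1 averaged 9.33 ± 1.53 units in Larp7-/- hearts and 10 ± 1.73 in Larp7+/+ hearts (SD, n = 3 each), and was at 2 in all 4 adult samples.

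Silent subunits conduct only when joined to other voltage-gated subunits. Kcng2 had 92, 80 and 74 units in Larp7-/- hearts, against 90, 101 and 108 in Larp7+/+ hearts (log2 change -0.28, SE 0.16, adjusted p = 0.454), with overlap, and its adult means were 117 ± 9.9 units in each group (SD, n = 2 each). Kcnv2 was listed in the adult only, at 1 and 8 units in the samples labelled mCKO, against 19 and 12 in CTR. Its log2 change of -1.93 was the largest in size among the tested potassium channel genes of either model, but the samples of a group differed widely (SE 0.99, adjusted p = 0.184), and leaving out 1 sample gave values between -3.01 and -0.84. With the plain eBayes prior Kcnv2 was called lower (limma adjusted p = 1.79e-07).

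Most of the remaining genes held low values. In the embryo, Kcnab1 (3, 4 and 5 units in Larp7-/- hearts, against 3, 1 and 1 in Larp7+/+ hearts) and Kcnab3, accessory subunits of the Kcna channels, and Kcna6, Kcnd1, Kcnh1, Kcng1, Kcns1 and Kcnj14 had positive changes between 0.63 and 1.02 with no mean over the samples above 3, and none passed the test. Kcnb2, Kcnf1, Kcnk2, Kcnmb2, Kcnmb4, Kcnn4 and Kcnt2, with means of at most 2, had changes between -0.14 and 0.53. Kcnq5, of the Kcnq1 family, had 14, 15 and 16 units in Larp7-/- hearts, against 14, 12 and 11 in Larp7+/+ hearts (adjusted p = 0.627). In the adult, Kcnab2, Kcnab3, Kcnt1 and Kcnt2 had positive changes between 0.26 and 1 with means between 0.5 and 5.25, as had Kcna2, Kcnd1, Kcnh7, Kcnj14 and Kcnn3 with changes between 0.16 and 0.58. Kcna7 and Kcnn4 had negative changes of -0.11 and -0.50, Kcna6, Kcnc1, Kcnip3 and Kcnq5 a change of 0, and Kcnk13 was listed at 2 in both samples labelled mCKO and at 0 in both CTR samples. None of these passed the test.

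**Figure D3:**
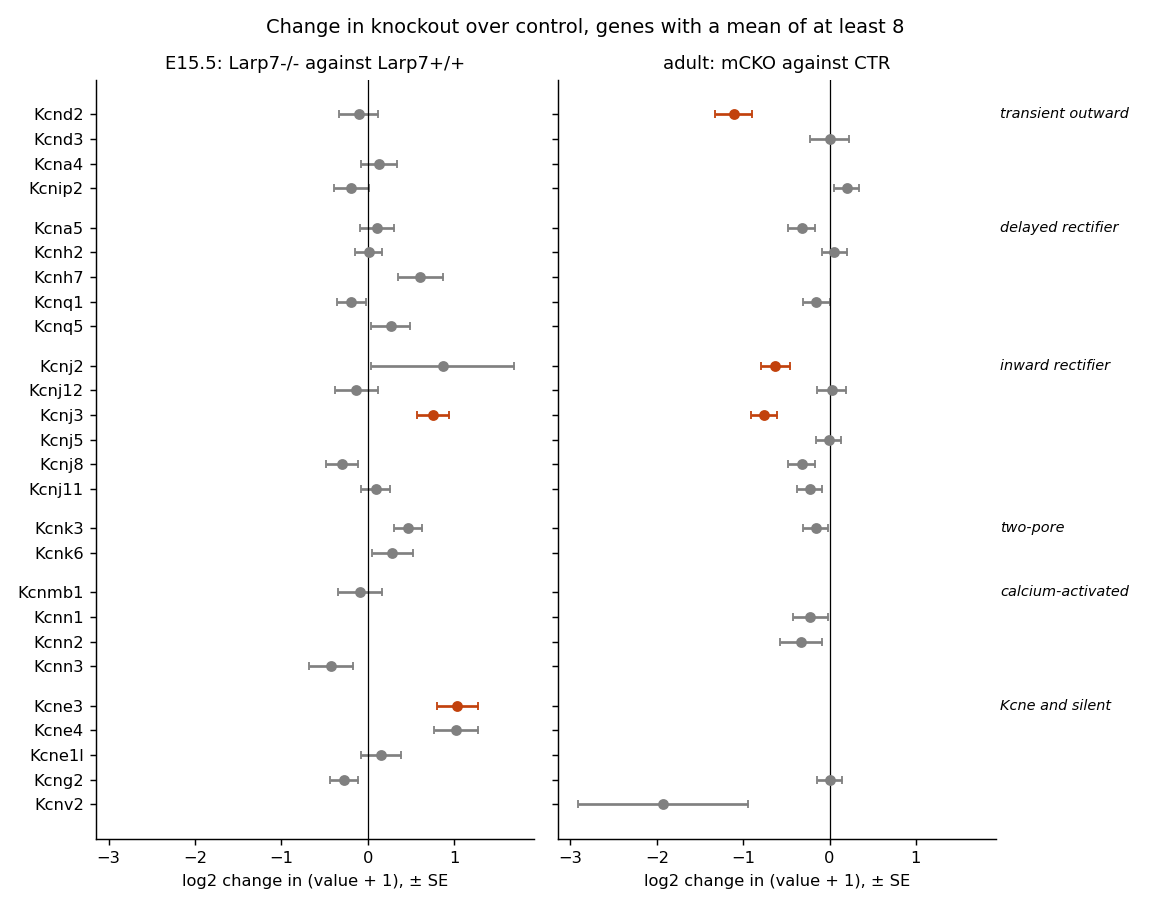
Log2 change in knockout over control (of value + 1) with its standard error for the potassium channel genes named in the text with a mean of at least 8 in a model, in rows by role, at E15.5 (left) and in the adult (right). Orange points passed an adjusted p of 0.05: Kcnj3 and Kcne3 at E15.5, and Kcnd2, Kcnj2 and Kcnj3 in the adult.

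Genes that do not begin with Kcn but serve these channels were set beside them: sulfonylurea receptors, the Dpp6 and Dpp10 subunits of Kcnd channels, Amigo1, scaffold proteins and regulators. Of 18, 12 were listed and 11 tested at E15.5, where 7 had a positive and 4 a negative change and the median was 0.12. Of these, Cav3, the muscle caveolin, was lower, with 78, 68 and 63 units in Larp7-/- hearts, against 110, 120 and 125 in Larp7+/+ hearts (log2 change -0.76, SE 0.16, adjusted p = 0.0211), and none was higher. In the adult 15 were tested and none was called by limma, with 1 at an unadjusted p under 0.05 (Tmem65). Irx5, a transcription factor known in mouse as a repressor of Kcnd2, had 25, 21 and 35 units in Larp7-/- hearts, against 17, 21 and 8 in Larp7+/+ hearts, and 8 and 9 in the samples labelled mCKO, against 7 and 6 in CTR. Neither difference in Irx5 passed the test (adjusted p = 0.517 and 0.716).

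Of 11 lists of cell type markers, the summed level in units lay above control in 2 and below in 2 at E15.5, and overlapped in 7. Of all single genes tested at E15.5, 19.3% lay above control in every value and 8.75% below. At E15.5 the 5 listed atrial markers of 6 all had positive changes, with 1 called (Nppa), and their summed level was 3120 to 3369 units in Larp7-/- hearts, against 2008 to 2256 in Larp7+/+ hearts; Sln was not listed. Without Nppa the sums of the other 4 were 1351, 1333 and 1688 in Larp7-/- hearts, against 1293, 1311 and 956 in Larp7+/+ hearts, so that most of that difference was in replicate 3, as for Kcnj2. The 6 listed conduction markers of 7 also had positive changes, with no call, and summed to 333 to 367 in Larp7-/- hearts, against 213 to 250 in Larp7+/+ hearts; Hcn4 was not listed. The 4 listed cardiomyocyte markers summed to 6937 to 8147 in Larp7-/- hearts, against 8557 to 9769 in Larp7+/+ hearts, with 1 called lower (Tnnc1). Of these markers, 3 had a negative change and Ttn a positive one (0.06). The 7 skeletal muscle markers summed to 496 to 563 in Larp7-/- hearts, against 940 to 1009 in Larp7+/+ hearts. Most of each sum was Ckm and Acta1, and 4 of the 7 markers had a positive and 3 a negative change (median 0.35). The 1 called lower was the muscle creatine kinase Ckm (388.3 ± 74.7 units in Larp7-/- hearts and 769.7 ± 74.7 in Larp7+/+ hearts, SD, n = 3 each, limma adjusted p = 0.00875). Among the lists whose sums overlapped, the pericyte marker Rgs5 was lower (log2 change -0.89, adjusted p = 0.00694) and the fibroblast marker Pdgfra higher (0.71, adjusted p = 0.0296). Only 3 of the 9 smooth muscle and pericyte markers were listed, and 2 of them, Pdgfrb and Abcc9, had positive changes (0.32 and 0.28). In the fibroblast list 3 of the 4 listed markers had a positive change and Postn a negative one (-0.09). The 3 listed epithelial markers of 7 summed to 45 to 175 in Larp7-/- hearts, against 44 to 84 in Larp7+/+ hearts, and the 6 erythroid markers, all with positive changes, to 3403 to 6842, against 1702 to 5139, both with overlap. The part of these shifts in the higher Kcnj3 and Kcne3 was not tested.

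In the adult the summed level of 6 lists lay above control and of 3 below, and 2 overlapped, with 2 samples a group. Single genes were also often separated, 29.3% of all tested genes lying above control in every value and 12.8% below. Kcnj3 was lower while the summed atrial markers were 1246 to 1472 units in the samples labelled mCKO, against 171 to 397 in CTR, nearly all of it Nppa. Without Nppa the other 4 summed to 57 and 63 in the samples labelled mCKO, against 76 and 71 in CTR, and Myl7 was at 1 or 0 in every sample. The 6 listed conduction markers of 7 summed to 32 in both samples labelled mCKO and to 31 to 35 in CTR. The 8 cardiomyocyte markers summed to 36419 to 37723 in the samples labelled mCKO, against 38948 to 40249 in CTR, with 1 called higher (Myh7). Their changes were positive in 3 and negative in 5 (median -0.05). Most of the fall in units was in Myh6 (17008 and 16906 in the samples labelled mCKO, against 19222 and 19325 in CTR). The 7 fibroblast markers summed to 1897 to 2044 in the samples labelled mCKO, against 1146 to 1292 in CTR, with none called. The 9 smooth muscle and pericyte markers summed to 1141 to 1142 in the samples labelled mCKO, against 1222 in both CTR samples. Their changes were negative in 5 and positive in 2, with none called. The largest falls in units were in Rgs5 and in Abcc9, which is also given above as a partner of the ATP-sensitive channels. Acta2 went the other way (137 and 143 units in the samples labelled mCKO, against 110 and 105 in CTR). The 7 endothelial markers summed to 702 to 737 in the samples labelled mCKO, against 756 to 789 in CTR. The 8 macrophage and leukocyte markers summed to 600 in both samples labelled mCKO, against 513 to 514 in CTR. The 4 listed skeletal muscle markers of 7 summed to 2347 to 2398, against 1396 to 1445. Most of that difference was in Acta1 (997 and 821 units in the samples labelled mCKO, against 68 and 244 in CTR). Tnnt3 and Tnni2 were at 1 or 0 in every sample. No endothelial, macrophage and leukocyte or skeletal muscle marker was called. The 6 listed neuron and Schwann cell markers of 10 summed to 31 to 35 in the samples labelled mCKO, against 15 to 22 in CTR, with 1 called higher (Uchl1, adjusted p = 0.000103). The 3 listed epithelial markers of 7 summed to 7 in both samples labelled mCKO, against 1 to 3 in CTR, with 1 called higher (Krt18, adjusted p = 0.0134), and the 5 listed erythroid markers of 6 to 1044 to 2364, against 88 to 1233, with overlap. The part of these shifts in the lower Kcnd2, Kcnj2 and Kcnj3 was not tested.

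Of the 34 genes in both tables, 30 were tested in both. Among these, 8 had a positive change in both models, 3 a negative change in both, 7 a positive change at E15.5 and a negative one in the adult, 3 the reverse, and 9 a change of 0 in either. Every knockout value lay above every control value in both models in 2 of the 30 genes, against 8.5% of all 9769 genes tested in both, and below in both in 1, against 2.65%. The knockout values lay on opposite sides of control in the models in 3 genes, against 5.52% of all. Of the 12 with a mean of at least 8 in both models, 5 had a positive change at E15.5 and a negative one in the adult (Kcnj3, Kcnj2, Kcnk3, Kcna5 and Kcnj11), and 3 a negative change in both (Kcnd2, Kcnj8 and Kcnq1). Of these 8 genes, Kcnj3 passed the test in both models, Kcnd2 and Kcnj2 in the adult alone and the other 5 in neither. With 1 sample left out the sign turned for Kcna5 and Kcnj11 at E15.5 and for Kcnq1 in the adult. The change at E15.5 was 0 for Kcnj2 without replicate 3 of either group and 0 for Kcnd2 without replicate 2 of either group. The models differ in allele, deleted cells, tissue and age at once, which cannot be told apart, and the tables were normalized separately, so no test was run between them.

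**Figure D4:**
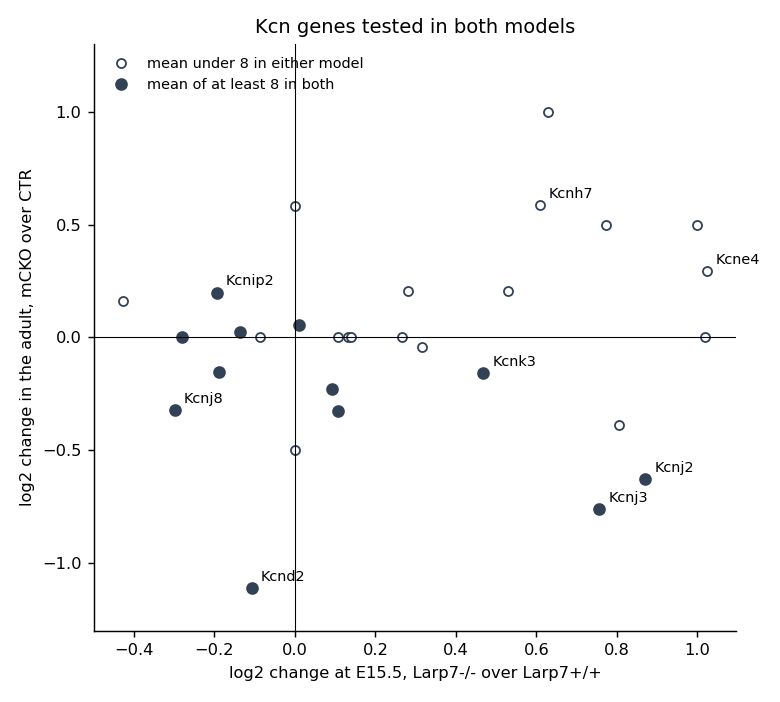
Each point is a potassium channel gene tested in both models, placed by its log2 change at E15.5 (Larp7-/- over Larp7+/+) and in the adult (mCKO over CTR). Filled points have a mean of at least 8 in both models. Kcnj3, Kcnj2 and Kcnk3 are among the points right of and below 0, and Kcnd2 and Kcnj8 lie left of and below 0.

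The per-million values of the control samples are set side by side for both ages without a test. The tables were normalized separately and the embryonic one lacks abundant genes such as Myh6 and Myh7, so a larger value does not show more RNA at that age. Kcnip2 averaged 229.5 units in adult CTR apex and 20.3 in Larp7+/+ embryonic hearts, Kcnj11 166 and 45.3, Kcnk3 240 and 101.3, and Kcnj3 65 and 20.3. Other genes had the larger value in the embryonic table: Kcna4 averaged 1.5 units in adult CTR apex and 16.3 in Larp7+/+ embryonic hearts, Kcnq5 0.5 and 12.3, Kcne3 0.5 and 12.3, and Kcnh7 1 and 12.3. Kcnh2 (101 and 106 units), Kcnq1 (44 and 50.7) and Kcng2 (117 and 99.7) were near the same value at both ages. Whole embryonic hearts include atria, which adult apex does not.

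The authors' deposited table gave the same directions for the 5 calls, with larger unadjusted p-values than the limma fit. For Kcnj3 the authors' deposited table has a log2 fold change of 0.72 at E15.5 (p = 0.0585) and of -0.84 in the adult (p = 0.04). For Kcne3 at E15.5 the authors' deposited table has 0.99 (p = 0.0348). For Kcnd2 and Kcnj2 in the adult the authors' deposited table has -1.25 (p = 0.098) and -0.70 (p = 0.178). At E15.5 neither Kcnj3 nor Kcne3 has an adjusted p in the authors' deposited table, and the authors' deposited table for the adult holds no adjusted p for any gene.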

How the data were processed

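Total RNA was extracted from whole embryonic hearts and adult apex with a column kit and DNase, per the labels' protocols. Per the submitters' processing notes, reads were handled with HISAT2 and HTSeq (versions not given) on mm10. For each model the authors deposited a score per gene and sample, a per-million value rounded to whole numbers; no source used here says whether it is TPM or CPM or how it was scaled. The same tables hold the authors' log2 fold changes and p-values, per the file headers.

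Where the mean was 10 or more, same-numbered knockout and control values added to one total, within 2, for 8328 of 8366 genes at E15.5 and for 8642 of 8658 in the adult, against at most 424 and 2473 with the numbers shifted. Their deviations from the group means correlate at -0.82 to -0.80 and at -0.81 across genes, which are not independent replicates. This pairing comes from the values, not from the labels.

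Each table was fitted on its own with limma 3.58.1 (R 4.3.3), on log2(value + 1), as knockout over control, so fold changes of low genes are understated. A gene was tested where as many samples as a group has held a value of at least 1. The replicate number was a block, eBayes used trend and robust options, and Benjamini-Hochberg adjustment ran over all tested genes at 0.05. A rounding variance of 0.0833 squared units was converted to the log2 scale at each gene's mean. The converted value, larger for low genes, was added to the residual variance of the gene. The fit was tested on simulated data. Alternatives varied block, rounding variance, pseudocount, filter, scaling, prior and samples. The left-out transcripts Kcnab3os, Kcnmb4os1, Kcnmb4os2 and Kcnq1ot1 were not called.

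Genes named with values are those called in either model, a fixed list of cardiac current genes, and in each model up to 5 tested genes with the largest change in each direction and a mean of at least 8; others are given by family, and a few genes are counted but not reported singly here. The genes, lists, markers and the fit were chosen with earlier results of these data known. Motifs and spans come from RefSeq and GENCODE vM21.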

Additional observations from a re-analysis of the deposited data

Results flagged for a closer look

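In 3 of the 30 potassium channel genes tested in both models every knockout sample lay on one side of the controls at E15.5 and on the other side in the adult, against 5.52% of the 9769 genes of all kinds tested in both, and 2 of the 3 are given here; the difference between the models was not tested, since the tables were normalized separately. The log2 change at E15.5 minus that in the adult was 1.52 for Kcnj3, with 37, 33 and 35 per-million units in Larp7-/- hearts, against 19, 22 and 20 in Larp7+/+ hearts, and 40 and 36 in the samples labelled mCKO, against 64 and 66 in CTR. It was 0.63 for Kcnk3, whose change passed the threshold in neither model.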

How the results depend on the processing

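Depth is unknown, so the error of low values is not known. At E15.5 the count of 2 higher genes became 0 with the replicate block but without the rounding variance, with a pseudocount of 0.5, with a mean of at least 10, with median-of-ratios scaling and with eBayes without trend and robust options, and 5 (with 1 lower) with no replicate block and without rounding variance. With no replicate block but with the rounding variance it was 2, Kcne4 and Kcnj3. Leaving out 1 sample gave 1 to 2 higher and 0 lower. The median log2 change of 0.28 became 0.13 with a mean of at least 10, 0.22 with scaling, and 0.18 to 0.29 with 1 sample left out; scaling took the median of all genes to 0.04. In the adult the 3 lower genes were called again with a pseudocount of 0.5, with no filter, with a mean of at least 10 and with scaling, while Kcnd2 and Kcnj3 were called with no replicate block. With the block but without rounding variance there were 5 higher and 1 lower, and with neither 6 higher and 1 lower. The lower gene was Kcnip1 both times, and Kcnd2, Kcnj2 and Kcnj3 were not called. The 5 higher genes, also called with neither, were the low-level Kcnab2, Kcnab3, Kcnh7, Kcnj4 and Kcnk13. With the plain eBayes prior there were 4 higher and 3 lower, the lower genes being Kcnd2, Kcnip1 and Kcnv2. Leaving out 1 sample gave 0 to 1 higher and 3 to 5 lower; without mCKO replicate 1 there were 5. The adult median of 0 became -0.16 with a mean of at least 10. The single-gene changes that turned sign had adjusted p-values of at least 0.875. Under scaling these were Kcnh2, at -0.055 in the embryo and -0.0061 in the adult, and Kcnj12, at -0.037 in the adult. With 1 sample left out, the ranges at E15.5 were -0.34 to 0.076 for Kcnmb1, -0.066 to 0.23 for Kcna5, -0.040 to 0.061 for Kcnh2, -0.030 to 0.20 for Kcnj11 and -0.27 to 0.063 for Kcnj12. In the adult they were -0.086 to 0.20 for Kcnh2, -0.050 to 0.097 for Kcnj12, -0.11 to 0.086 for Kcnj5, -0.31 to 0.0090 for Kcnq1 and -0.16 to 0.58 for Kcnk2. The cause was not tested. Where an adult group kept 1 sample, no block was used and the lone sample is assumed to vary like the other group.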
